A study of Mus musculus with 12 samples.

Results

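Transfer RNA from blood-forming stem and progenitor cells of old mice was compared with that of young mice in the libraries that received no CMC, the carbodiimide that stays attached to pseudouridine. In these libraries the ends of reads mark places where copying of the tRNA broke off without the pseudouridine reagent. The measure was the stop rate, the percent of reads over a base that ended at it. All rows with coverage of at least 20 reads in the 6 libraries without CMC were members, for any of the 4 bases, and they came to 13206 of 14170 rows over 213 distinct tRNAs. The tables list 28302 rows over 404 tRNA entries, and entries with identical values were counted once. Coverage had a ceiling near 8015 reads, and stops 3′ of a place where it is reached are barely recorded. The 4798 rows whose coverage at or 5′ of the row reached 7500 in any of the 6 libraries were therefore kept apart from the other 8408.

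The study profiled pseudouridine in tRNA of hematopoietic stem and progenitor cells of wildtype mice, and its title names PUS10, a pseudouridine synthase, in aging. Its 12 libraries are young and old, each with CMC and without it (BEU buffer alone), in 3 replicates, and 6 of the 12 are used here: Young without CMC and Old without CMC, 3 libraries each. All groups share the wildtype genotype, the AlkB treatment (wild-type and mutant enzyme, which removes several base methylations) and the alkaline carbonate step. Months of age, sex, pooling of animals and the sort of the cells are not stated in the labels, so the spread behind each p-value is that between libraries and could be technical. The tables hold tRNA only, so the cell type was not checked against marker genes.

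Reverse transcriptase copies RNA into DNA from the 3′ end and often breaks off at a base whose modification blocks pairing. Well-known blocking modifications of mammalian tRNA are 1-methylguanosine at position 9, dimethylguanosine at position 26 (made by TRMT1), the bulky acp3U of the D loop (made by DTWD1 and DTWD2), hypermodified purines at position 37 beside the anticodon, and 1-methyladenosine at position 58. AlkB removes part of these before copying. Position 34, the first base of the anticodon, also carries many modifications: inosine from A, queuosine from G, and thiolated or carboxymethylated uridine. A read also ends where the RNA itself was broken, and the tables record both kinds of end alike, so a modification and a break cannot be told apart here.

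Of the 27 rows called lower in old cells, 16 lay in the anticodon. Sequences of these tRNAs are shown first, 5′ to 3′ in DNA letters as deposited, 17 bases each. These 7 are whole anticodon arms, and capitals mark the bases where the stop rate was called lower in old cells.
tRNA-Arg-CCT-1-1: ctggcctCCtaagccag
tRNA-Ala-CGC-1-1: catgcttCgcatgtatg
tRNA-Ser-CGA-1-1: ttggactCgaaatccaa
tRNA-Thr-CGT-2-1: tcggtctCgtaaaccga
tRNA-Arg-CCG-3-1: tcagcctcCggagctgg
tRNA-Gln-TTG-1-1: ctggactTtgaatccag
tRNA-Val-TAC-1-1: tctgctttaCacgcaga

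For tRNA-Ile-TAT the stretch from the anticodon loop into the variable region is shown, since called bases lay in both, again with the called bases in capitals.
tRNA-Ile-TAT-2-1: ctTataatgccgaggtt
tRNA-Ile-TAT-1-1: ctTataatgccgagGtt

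As a contrast, 3 anticodon arms are shown in which position 34 (capital) stopped reads but was not called.
tRNA-Glu-TTC-3-1: cggcgctTtcaccgccg
tRNA-iMet-CAT-2-1: ctgggccCataacccag
tRNA-Val-CAC-1-1: ctcgcctCacacgcgag

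Stops without CMC were frequent at some of the places where blocking modifications are known and not at others. Among 8288 rows below the ceiling, leaving out the row that marks the 5′ end, 21% had a mean stop rate of at least 5%. That share was 76.5% at G26, 61.5% in the D loop and 44.6% at G9, but 9.71% at T54 and T55 and 2.04% at T38 to T40. Where m1A58 is known, 26.2% of A58 rows reached it, and at purine 37 the share was 15.2%, under that of all rows. The highest mean rates over the 6 libraries were 98% at G16 of tRNA-His-GTG-3-1, 94.9% at base 19 of tRNA-Cys-GCA-7-1, 94.2% at T55 of tRNA-Ser-GGA-1-1 and 94.1% at base 21 of tRNA-Asn-GTT-2-1. Single rows can thus be high in a group where few rows reach 5%, and A37 of tRNA-Lys-TTT-2-1, a purine known to be hypermodified, had 91.8%. D-loop and variable-region bases are counted along the entry from its 5′ end, while other positions follow the usual tRNA numbering.

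The overall level of stops did not differ between the ages beyond the spread of the libraries. Averaged over the 1741 rows that reached 5% below the ceiling, the stop rate was 15.8%, 16.6% and 15.5% in the young libraries and 14.8%, 16.4% and 16.5% in the old. The ranges overlapped, with means of 16% ± 0.556 and 15.9% ± 0.967 (SD, n = 3 each), and the two-sided exact permutation test gave p = 0.8, where 0.1 is the smallest it can give. Coverage at the 5′ end, as a percent of the highest coverage of the same tRNA and as the median over 65 tRNAs, was 6.90%, 7.04% and 6.06% in young cells and 6.03%, 6.79% and 6.35% in old cells (exact permutation p = 0.5). These ranges overlapped too.

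Of the 1741 rows tested in 186 tRNAs, 28 (1.61%) were called at an adjusted p under 0.05 by edgeR's quasi-likelihood test on stop and read-through counts. Old cells had the lower stop rate at 27 of them (1.55% of rows tested) and the higher at 1 (0.0574%). The rows called lower fell by between 3.32 and 12.3 percentage points, and their odds of a stop in old cells were 0.283 to 0.628 of those in young. In all 28 the 3 old libraries and the 3 young libraries did not overlap, which held for 11.1% of all rows tested with old lower and 7.64% with old higher. Over all rows the median difference was -0.117 points, and the middle 50% of rows lay between -1.59 and 1.26. Coverage behind the called rows ran from 240 to 7492 reads per library. The 5% minimum was on the mean over both ages, so some called rows passed it only through the age with the higher rate. Among them were C35 of tRNA-Arg-CCG-3-1 (7.83% in young, 3.47% in old) and T16 of tRNA-Asn-GTT-3-1 (4.69% and 9.04%). Near-alike tRNAs of one family share reads in an unknown way, and counted once per anticodon and position the 27 rows come to 17.

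The number of calls changed with the test and with the libraries. With limma on log odds no row was called: the smallest adjusted p was 0.0591, 207 rows had an unadjusted p under 0.05, and the 28 rows kept their direction with adjusted p of at most 0.255. Fitting all 2031 rows below and at the ceiling together also left 0 calls (166 at an unadjusted p under 0.05, smallest adjusted p 0.118). Without the first young library 7 rows were called, all among the 27 lower in old: position 34 of tRNA-Ile-TAT-1-1, tRNA-Ile-TAT-2-1, tRNA-Arg-CCT-1-1, tRNA-Arg-CCT-2-1, tRNA-Arg-CCT-3-1 and tRNA-Thr-CGT-2-1, and position 35 of tRNA-Arg-CCG-3-1. Those calls held with any 1 library left out. Of the called rows still tested, 20 lost the call without the first young library, 9 without the second and 1 without the third, and 2, 7 and 4 lost it without the first, the second and the third old library.

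**Figure D1:**
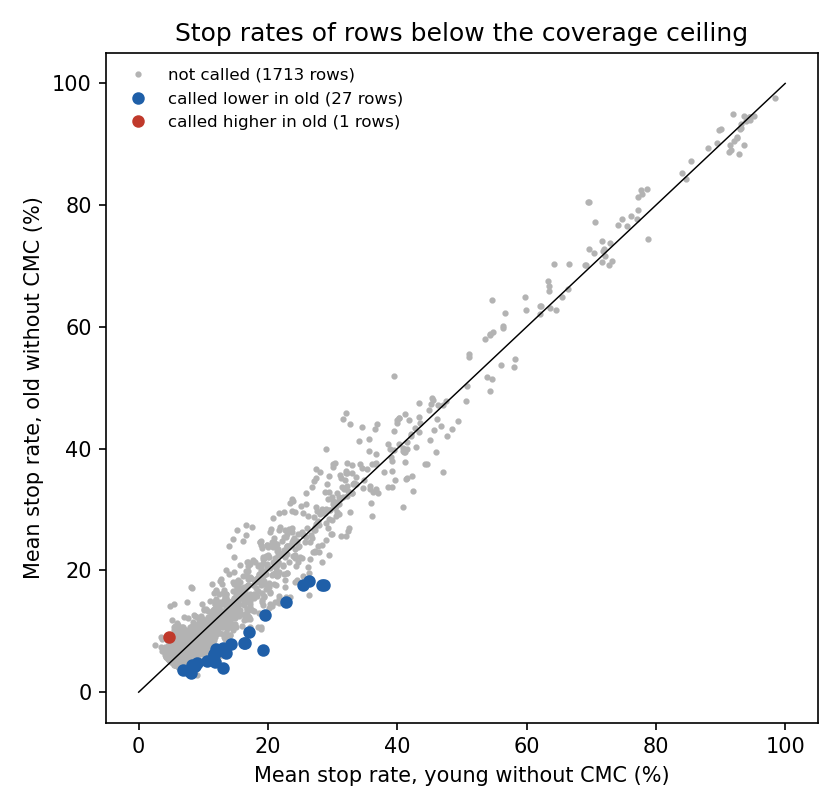
Mean stop rate without CMC in old cells (vertical axis, percent) against young cells (horizontal axis, percent), 3 libraries each, for the 1741 rows tested below the coverage ceiling. The 27 rows called lower in old (blue) lie under the line of equality at young rates below 30%, the row called higher (red) lies above it, and the 1713 grey rows were not called.

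Anticodon bases held 16 of the 27 rows called lower. They were 17.8% of the 90 anticodon rows tested, against 1.55% over all rows, and no anticodon row was called higher. Near-alike tRNAs of the same anticodon, such as those of tRNA-Arg-CCT, are counted singly here. They can share reads, so the rows in these counts are not independent. Coverage was unlike: the median of the mean coverage was 1126 reads in anticodon rows and 536 over all rows. The part of coverage in the 2 shares was not tested. The groups did not overlap with old lower in 36 of the 90 (40%, against 11.1% of all rows) and with old higher in 6 (6.67%, against 7.64%), and the median difference was -1.80 points against -0.117 over all rows. All 16 calls lay among the 57 rows with mean coverage of 500 reads or more, and the 33 rows with less gave 0. By base, 12 of 37 anticodon C rows and 4 of 31 T rows were called, but none of 14 A rows or 8 G rows. Mean coverage had a median of 1144 reads in the C rows and 1297 in the T rows. It was 297 in the A rows and 711 in the G rows. Position 34, the wobble base that reads the third base of the codon, gave 12 calls in 35 rows, position 35 gave 3 in 27 and position 36 gave 1 in 28. Mean coverage at these positions had medians of 1144, 1404 and 396.5 reads. The part of coverage in the counts by base and position was not tested.

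The largest called difference was at T34 of tRNA-Ile-TAT-2-1, a minor isoleucine tRNA that reads AUA codons. Its stop rate was 20.0%, 19.9% and 17.8% in the young libraries and 6.55%, 6.18% and 8.20% in the old. Every young library stood above every old one by more than the range of either age. The difference was -12.3 points (SE 0.932), with edgeR's adjusted p of 0.000764. Its near-copy tRNA-Ile-TAT-1-1 gave 13.3%, 15.2% and 10.4% against 3.82%, 3.54% and 4.58% at the same base, a difference of -9.0 points (SE 1.43, edgeR adjusted p = 0.00203). Base 21 in the D loop of the same 2 tRNAs had values the other way that did not pass the test. There tRNA-Ile-TAT-2-1 read 64.3%, 69.4% and 74.9% in young against 77.2%, 84.0% and 80.2% in old (edgeR adjusted p = 0.204).

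Glutamine tRNA with anticodon TTG, whose U34 is known to carry a thiolated modification, had the next largest difference. In tRNA-Gln-TTG-1-1 the rate at T34 was 30.0%, 30.2% and 25.7% in young and 17.2%, 17.7% and 17.7% in old. The old libraries lay within 1 point of each other and well under the lowest young one, a difference of -11.1 points (SE 1.47, edgeR adjusted p = 0.00588). The near-copy tRNA-Gln-TTG-3-1 gave -10.8 points. In both, the call was lost without the first young library. The other 2 tRNAs of this anticodon that were measured stopped few reads there: T34 averaged 1.58% in young and 1.06% in old for tRNA-Gln-TTG-2-1, and 0.593% and 0.521% for tRNA-Gln-TTG-5-1. At under 5% these rows were not tested. In contrast to the called pair, tRNA-Gln-CTG-5-1, with C34, read 27.3%, 27.2% and 26.5% against 23.8%, 22.4% and 22.9%, separate groups with a difference of -3.96 that did not pass the test (edgeR adjusted p = 0.407).

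Cytosines of the anticodon gave the most calls. Arginine tRNA with anticodon CCT was called at C34 in all 3 distinct tRNAs tested below the ceiling. Here tRNA-Arg-CCT-1-1 read 15.1%, 17.9% and 16.2% in young and 7.54%, 7.10% and 9.77% in old. The highest old value was well under the lowest young one, and the difference was -8.28 points (SE 1.17, edgeR adjusted p = 0.00312). The same test gave -8.32 in tRNA-Arg-CCT-2-1 and -6.82 in tRNA-Arg-CCT-3-1. The next base, C35, was called in the first pair, by -5.57 and -5.32 points, and read 7.73% ± 1.34 in young and 4.2% ± 1.21 in old for tRNA-Arg-CCT-3-1, just short of the threshold (edgeR adjusted p = 0.0501). In tRNA-Arg-CCG-3-1, C35 read 8.02%, 8.80% and 6.65% in young and 3.66%, 3.17% and 3.59% in old (-4.35 points, SE 0.648, edgeR adjusted p = 0.00312). Of its relatives, tRNA-Arg-CCG-1-1 averaged 6.35% in young and 3.79% in old without a call, and tRNA-Arg-CCG-2-1, with 4.39% and 2.19%, was below the 5% minimum and not tested.

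Alanine, serine and threonine tRNAs with C34 showed the same direction. In tRNA-Ala-CGC-1-1, C34 read 23.0%, 23.7% and 21.6% in young and 14.5%, 13.7% and 16% in old, apart by more than 5 points, and the difference was -8.03 (SE 0.917, edgeR adjusted p = 0.0158). In tRNA-Ser-CGA-1-1 the old libraries scattered more, at 5.84%, 3.76% and 9.63% against 15.1%, 13.5% and 11.8% in young (-7.07 points, SE 1.97, edgeR adjusted p = 0.0258). Its relative tRNA-Ser-CGA-2-1 gave -4.37 points. In tRNA-Thr-CGT-2-1, C34 read 8.84%, 7.4% and 8.10% against 3.74%, 2.58% and 3.21% (-4.94 points, SE 0.533, edgeR adjusted p = 0.00302), and tRNA-Thr-CGT-1-1 gave -3.32. By comparison tRNA-Thr-CGT-4-1 averaged 20.2% in young and 17.3% in old and was not called (edgeR adjusted p = 0.542). Valine tRNA tRNA-Val-TAC-1-1 was called at C36, with 19.1%, 21.3% and 18.1% in young and 11.7%, 13.7% and 12.8% in old (-6.80 points, SE 1.10, edgeR adjusted p = 0.0224). No library of one age crossed into the range of the other in any of these rows.

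Not every anticodon base that stopped reads was lower in old cells. T34 of tRNA-Glu-TTC-3-1, also a known site of a thiolated uridine, stopped 79.4%, 77.7% and 74.0% of reads in young and 73.8%, 79.9% and 79.3% in old, fully overlapping. C34 of the initiator tRNA-iMet-CAT-2-1 stopped 25.4%, 25.2% and 25.7% against 27%, 27.4% and 22.9%. A34, the site of inosine, was not called in any of 8 rows. In the 4 valine tRNAs tested with anticodon AAC the old libraries lay above the young ones, by a wide or a narrow gap. The best covered of them, tRNA-Val-AAC-5-1, read 37.5%, 41.6% and 39.6% in young and 41.6%, 43.4% and 43.5% in old, where the closest values differ only past the decimals printed (edgeR adjusted p = 0.627). C34 of tRNA-Val-CAC-1-1 read 13%, 10.0% and 12.7% in young and 17.3%, 14.2% and 18.5% in old, also higher and not called (edgeR adjusted p = 0.327). At C35, by contrast, all 13 rows had the lower mean in old, against 921 of 1741 over all rows. Of the 13, 12 did not overlap (92.3%, against 11.1% of all rows with old lower). Among them were all 6 tryptophan tRNAs, which are near-alike and can share reads, and none of these was called. Nearest came tRNA-Trp-CCA-4-1, with 9.84%, 11.1% and 10.5% against 7.56%, 5.68% and 6.66% (edgeR adjusted p = 0.0573).

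**Figure D2:**
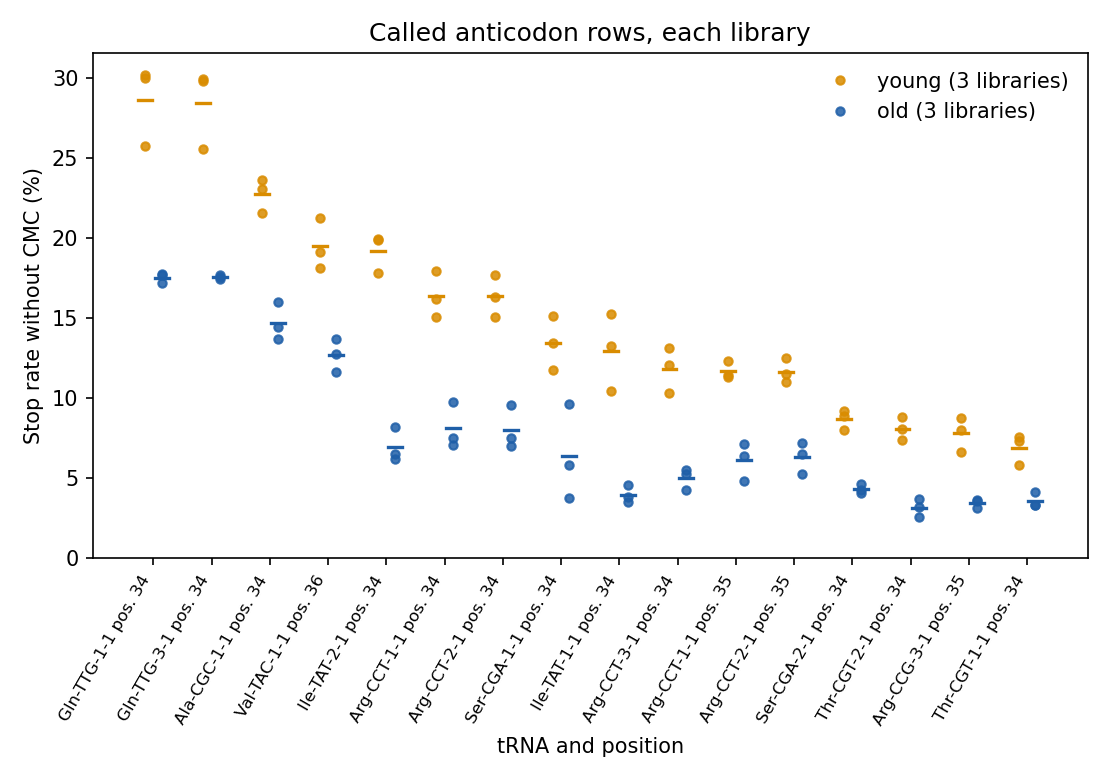
Stop rate without CMC (percent) of the 16 called anticodon rows, ordered by the young mean, with young libraries in orange and old libraries in blue; each point is 1 library and each bar the mean of 3. Old libraries lie under the young ones in every row, from T34 of tRNA-Gln-TTG-1-1 near 30% in young to C34 of tRNA-Thr-CGT-1-1 under 10%.

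D-loop rows gave 6 calls lower and 1 higher among 472 rows, and the 6 are 1.27%, near the 1.55% of all rows. The groups did not overlap with old lower in 40 (8.47%, against 11.1% of all rows) and with old higher in 56 (11.9%, against 7.64%). Their median difference was 0.464 points. Of the 6 calls lower in old, 5 were base 21 of leucine tRNAs. The capital marks that base in 2 leucine D arms, the first called and the second not.
tRNA-Leu-AAG-2-1: gccgagcggtcTaaggc
tRNA-Leu-CAA-2-1: gccgagtggtcTaaggc

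Base 21 was called lower in all 5 distinct tRNAs tested with anticodon AAG or TAG. It read 15%, 14.3% and 13.6% in young and 7.97%, 8.52% and 7.03% in old for tRNA-Leu-TAG-2-1 (-6.44 points, SE 0.586, edgeR adjusted p = 0.00675). For tRNA-Leu-AAG-1-1, the best covered of the D-loop calls, it read 9.35%, 8.40% and 8.10% against 4.51%, 3.95% and 4.57% (-4.28 points, SE 0.426, edgeR adjusted p = 0.00312). The remaining 3 fell by 5.81, 5.53 and 4.25 points, and none of the 5 groups overlapped. Leucine tRNAs with anticodon CAA read close to 6.4% at this base in both ages: tRNA-Leu-CAA-2-1 averaged 6.38% ± 1.76 in young and 6.42% ± 1.07 in old (SD, n = 3 each; edgeR adjusted p = 0.968). All 5 calls were lost without the first young library.

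**Figure D3:**
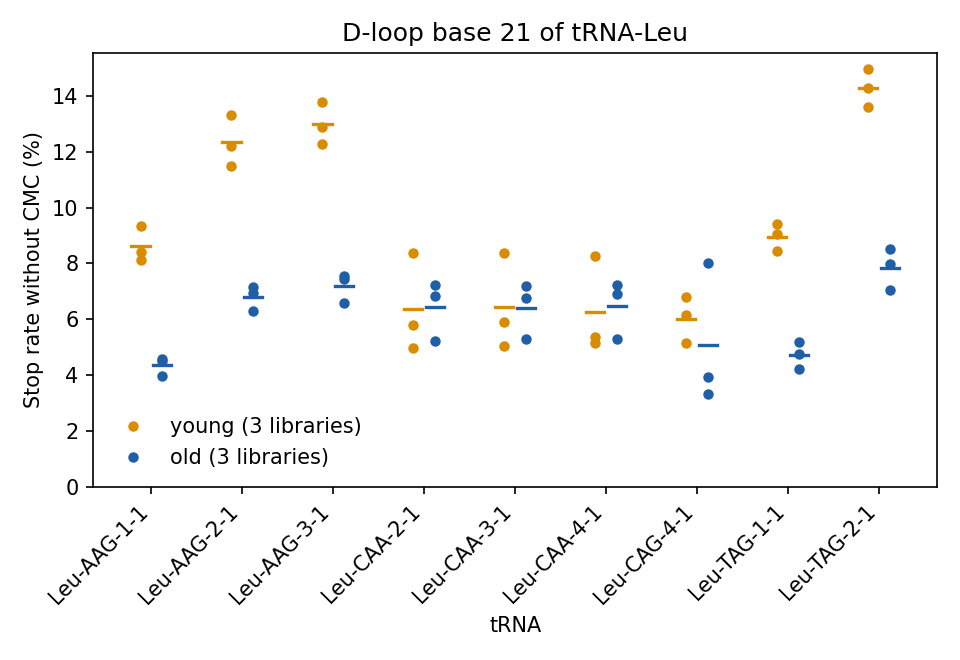
Stop rate without CMC (percent) at D-loop base 21 of the 9 distinct leucine tRNAs tested there, with young libraries in orange, old libraries in blue and bars for the mean of 3. The 5 tRNAs with anticodon AAG or TAG show old libraries wholly under young ones, and the tRNAs with anticodon CAA and CAG overlap.

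At position 16 a pair of D loops moved in opposite directions, with the capital on that base.
tRNA-Trp-CCA-2-1: gcgcaaCggtagcgc
tRNA-Asn-GTT-3-1: gcgcaaTcggttagcgc

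C16 of tRNA-Trp-CCA-2-1 read 11.2%, 14.2% and 10.5% in young and 6.65%, 7.21% and 7.17% in old, without overlap (-4.98 points, SE 1.16, edgeR adjusted p = 0.02). The other tryptophan tRNAs measured there were lower without being called, such as T16 of tRNA-Trp-CCA-5-1 at 39.3%, 45.6% and 37.7% against 30.1%, 27.8% and 33.6% (edgeR adjusted p = 0.0981). T16 of tRNA-Asn-GTT-3-1, which stands for 9 identical entries, was the only row called higher. It read 5.06%, 3.62% and 5.4% in young and 10.8%, 8.08% and 8.21% in old (4.35 points, SE 1.05, edgeR adjusted p = 0.0266), and the call was lost without the first or the second young library or the first old one. Uridines of the D loop are commonly reduced to dihydrouridine, and some carry acp3U. Larger differences upward were not called and were singled out after their values were seen: base 19 of tRNA-Tyr-GTA-4-1 read 34.7%, 31.7% and 29.7% in young and 53.9%, 37.0% and 46.4% in old (edgeR adjusted p = 0.104).

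The variable region, between the anticodon and T arms, gave 4 rows called lower and none higher among 166, which is 2.41% against 1.55% of all rows. The old mean was lower in 130 of the 166, against 921 of 1741 over all rows. Mean coverage of these rows had a median of 1331 reads, against 536 over all rows, and its part in these shares was not tested. The groups were separate with old lower in 39 (23.5%, against 11.1% of all rows) and with old higher in 1, and the median difference was -1.52 points. G45 by count in tRNA-Ala-CGC-2-1 read 26.6%, 26.2% and 23.5% in young and 17.0%, 18.5% and 17.3% in old (-7.80 points, SE 1.08, edgeR adjusted p = 0.0302). Base 47 of tRNA-Ile-TAT-1-1, a G, read 16.2%, 18.5% and 16.5% against 8.18%, 10.0% and 11.3% (-7.21 points, SE 1.17, edgeR adjusted p = 0.0150). Both had lower values in every old library than in any young one. The calls in the long variable arms of leucine tRNAs were base 50 of tRNA-Leu-TAA-2-1, which fell by 5.43 points, and base 50 of tRNA-Leu-CAA-1-1, which fell by 3.78 points.

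G26, where dimethylguanosine is known, gave 1 call among 62 rows, a share near that of all rows (1.55%). In tRNA-Ser-GCT-5-1 it read 28%, 24.7% and 26.4% in young and 17.4%, 18.4% and 19.0% in old, well apart (-8.05 points, SE 1.05, edgeR adjusted p = 0.0266), and this call was lost when any 1 of 5 libraries was left out. The other 4 distinct tRNAs of this anticodon had lower means in old too, with tRNA-Ser-GCT-1-1 at 20.3% against 14.5% and not called. Over the 62 rows 49 had the lower mean in old, against 921 of 1741 over all rows. Of the 62, 16 did not overlap with old lower (25.8%, against 11.1% of all rows) and 5 with old higher (8.06%, against 7.64%). The median difference was -1.44 points. Mean coverage had a median of 1197 reads at G26, against 536 over all rows, and its part was not tested. In tRNA-Ile-AAT-3-1 the base stopped nearly all reads in both ages, 91.6% ± 0.207 in young and 89.1% ± 0.816 in old (SD, n = 3 each), and was not called.

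At A58, where m1A is known and AlkB acts, 0 of 22 rows were called, although the old mean was lower in all 22. Over all rows it was lower in 921 of 1741. The 22 include near-alike tRNAs that can share reads, such as those of tryptophan. The median difference was -1.47 points, and the groups were separate in 1 row (4.55%, against 11.1% of all rows). Its best covered row, in tRNA-Trp-CCA-4-1, read 11.1%, 12.9% and 9.61% in young and 8.11%, 10.4% and 9.81% in old, which overlap (edgeR adjusted p = 0.547). Among 17 purine 37 rows 0 were called and 5 (29.4%) did not overlap, all lower in old, against 11.1% of all rows. Their mean coverage had a median of 1293 reads, against 536 over all rows. A37 of tRNA-Lys-TTT-2-1 read 93.8%, 93.7% and 93.5% in young and 86.5%, 90.6% and 92.5% in old (edgeR adjusted p = 0.122), so nearly all reads stopped there at either age.

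T54 and T55 of the T loop, where PUS10 is known to act on a pseudouridine, were measured here without the reagent that reveals it. None of the 17 rows that reached 5% was called or had separate groups, and their median difference was -0.747 points. The best covered, T55 of tRNA-Gly-CCC-3-1, read 6.51%, 6.15% and 5.52% in young and 5.36%, 6.80% and 7.21% in old (edgeR adjusted p = 0.931). G9 had 0 calls in 33 rows and G10 had 0 in 34, with median differences of 0.564 and 0.595 points. Their mean coverage had medians of 287 and 302.5 reads, against 536 over all rows. No row in any group was called at a mean coverage under 573.5. The groups were separate with old higher in 4 G9 rows (12.1%) and 7 G10 rows (20.6%), against 7.64% of all rows, and with old lower in 0 and 1. Best covered in both was tRNA-Leu-AAG-1-1, at 5.97% ± 0.147 against 6.65% ± 0.910 for G9 and 5.57% ± 0.526 against 6.74% ± 0.463 for G10 (SD, n = 3 each). The 806 rows outside these positions gave 0 calls, with 53 rows separate in each direction (6.58%, against 11.1% lower and 7.64% higher over all rows) and a median difference of 0.028 points. Mean coverage of these 806 rows had a median of 358 reads. Few rows were testable at T13 (3), position 32 (7), T27 and T28 (10) and T38 to T40 (2), and none was called.

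**Figure D4:**
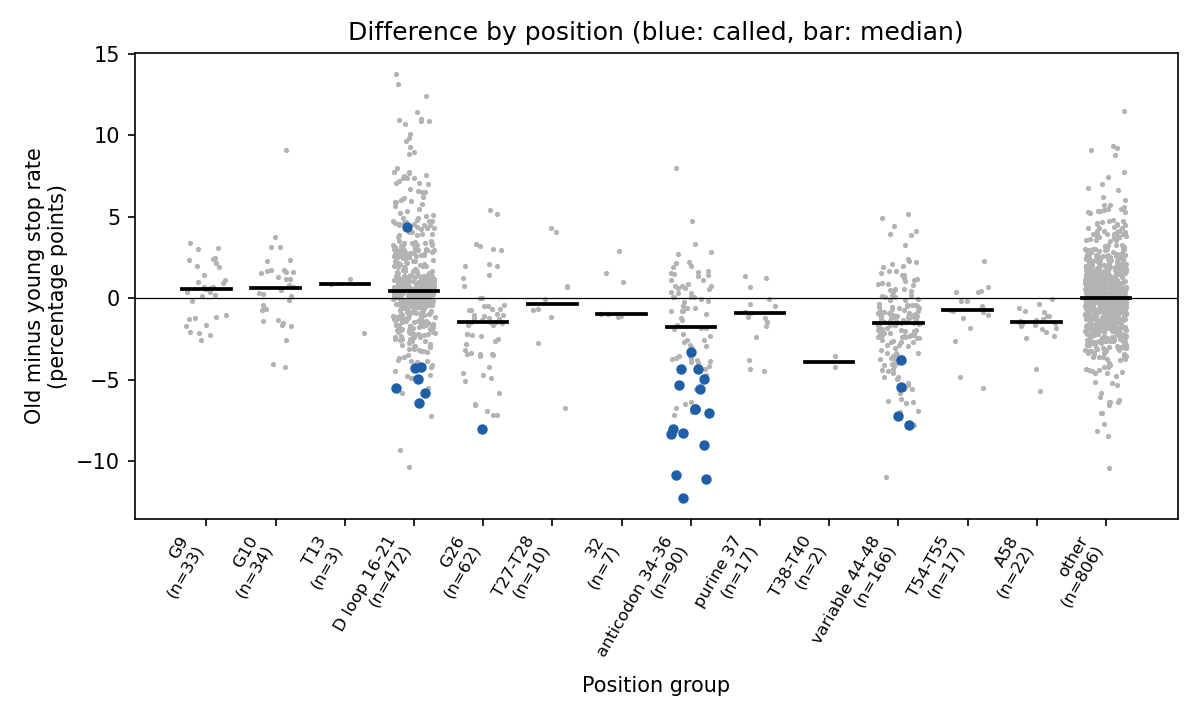
Difference in stop rate, old minus young (percentage points), for the 1741 rows tested below the ceiling, by position group with the number of rows; grey points are rows not called, blue points called rows and black bars medians. The 16 anticodon calls reach -12.3 points, A58 rows all lie below 0, and the group of other positions centres on 0.028.

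The libraries with CMC of the same ages, which took no part in the calls, measured the same difference for 18 of the 28 rows with enough reads below the ceiling. Each was deposited together with the library without CMC of the same age and replicate number. Both could come from the same RNA, so these values cannot be taken as an independent repeat of the ages. The old mean was lower in 16 of these 18, all of them rows that were lower without CMC, and 0 were called (5 at an unadjusted p under 0.05 and a smallest adjusted p of 0.211 by edgeR). Over the 2226 rows tested with CMC 0.404% were called. How many of them had the lower old mean was not counted, so 16 of 18 has no share over all rows beside it. The 18 include the near-alike leucine rows at base 21, and in each of these the ages overlapped with CMC. In tRNA-Leu-TAG-2-1, for instance, base 21 read 17.8%, 33.7% and 27.6% in young against 23.1%, 31.8% and 22.9% in old. Among the rows not measured with CMC were T34 of both tRNA-Ile-TAT, the largest call among them. C34 of tRNA-Arg-CCT-1-1 and tRNA-Arg-CCT-2-1 and C35 of tRNA-Arg-CCG-3-1 were not measured either. C34 of tRNA-Ala-CGC-1-1 read 29.6%, 21.7% and 26.1% in young and 6.45%, 20.7% and 14.8% in old with CMC (edgeR adjusted p = 0.532). C34 of tRNA-Thr-CGT-2-1 averaged 9.52% ± 1.93 in young and 4.82% ± 0.283 in old (SD, n = 3 each, edgeR adjusted p = 0.274). T34 of tRNA-Gln-TTG-1-1 did not repeat its difference, with 20.5% in young and 20.9% in old.

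At the ceiling 0 of 290 rows in 99 tRNAs were called, with 0 at an unadjusted p under 0.05 and a smallest adjusted p of 0.998 by edgeR. The old mean was lower in 218 of the 290, against 921 of the 1741 rows below the ceiling. With old lower 44 of the 290 were separate and with old higher 0, against 11.1% and 7.64% of the rows below the ceiling. Even these separate rows had no unadjusted p under 0.05 by edgeR, so the 0 calls do not show that the ages were alike there. In some rows libraries of the same age stood far apart. At C36 of tRNA-Val-AAC-5-1 the young libraries read 43.4%, 44.8% and 42.4% and the old read 0.0505%, 31.1% and 29.7%, and the one near 0 is the first old library, in which the most tRNAs reached the ceiling. Base 47 of tRNA-Ile-AAT-3-1 read 0.0625%, 6.70% and 0.0875% against 0.0750%, 31.8% and 32.1%, and the ceiling and age cannot be told apart there. In others they did not: G26 of tRNA-Ser-GCT-2-1 read 25.1%, 21.6% and 23.1% in young and 13.3%, 16.3% and 17.1% in old.

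Depth differed between libraries within each age. Summing the highest coverage of all 213 tRNAs gave 814489, 713459 and 1032104 in the young libraries and 1061426, 592416 and 533736 in the old. The ceiling was reached by 50, 35 and 98 tRNAs in young and 103, 27 and 21 in old. The deepest library of each age was thus the third young and the first old one.

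No tRNA was called for a change in abundance. Highest coverage, as a share of the total of the 110 tRNAs that stayed below the ceiling in all 6 libraries, gave 0 calls in 110 by edgeR (19 or 17.3% at an unadjusted p under 0.05, smallest adjusted p 0.197). Another 103 tRNAs reached the ceiling in some library, 21 of them in all 6, and have no comparable level. The median log2 fold change was -0.01, and 56 of 110 lay below 0. The lowest 5 were tRNA-Arg-TCT-4-1 (-0.76, SE 0.42), tRNA-Lys-CTT-8-1 (-0.59), tRNA-Ala-AGC-8-1 (-0.50), tRNA-Ile-AAT-4-1 (-0.48) and tRNA-Cys-GCA-25-1 (-0.47), as log2 fold changes of old over young. The highest 5 were tRNA-Thr-AGT-7-1 (0.63, SE 0.23), tRNA-Tyr-GTA-5-1 (0.49), tRNA-Arg-TCT-5-1 (0.47), tRNA-Gln-CTG-1-1 (0.45) and tRNA-Gln-TTG-2-1 (0.43).

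Members of one amino acid often lay on the same side of 0 without any being called. All 12 cysteine tRNAs were below 0 (median log2 fold change -0.23), as were all 5 isoleucine tRNAs (median -0.09), and all 9 threonine tRNAs (0.29), all 4 glutamine tRNAs (0.41) and both tyrosine tRNAs (0.44) were above it. These counts were the same without TMM, with DESeq2 size factors, with limma voom and with capped tRNAs in the fit. Such tRNAs are near-copies that can share reads. Depth moved with these values: tRNA-Thr-AGT-7-1 held 1223, 814 and 2556 reads in the young libraries and 4247, 905 and 735 in the old, and its share of the total was also highest in the deepest library of each age. The part of depth in the difference was not tested.

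**Figure D5:**
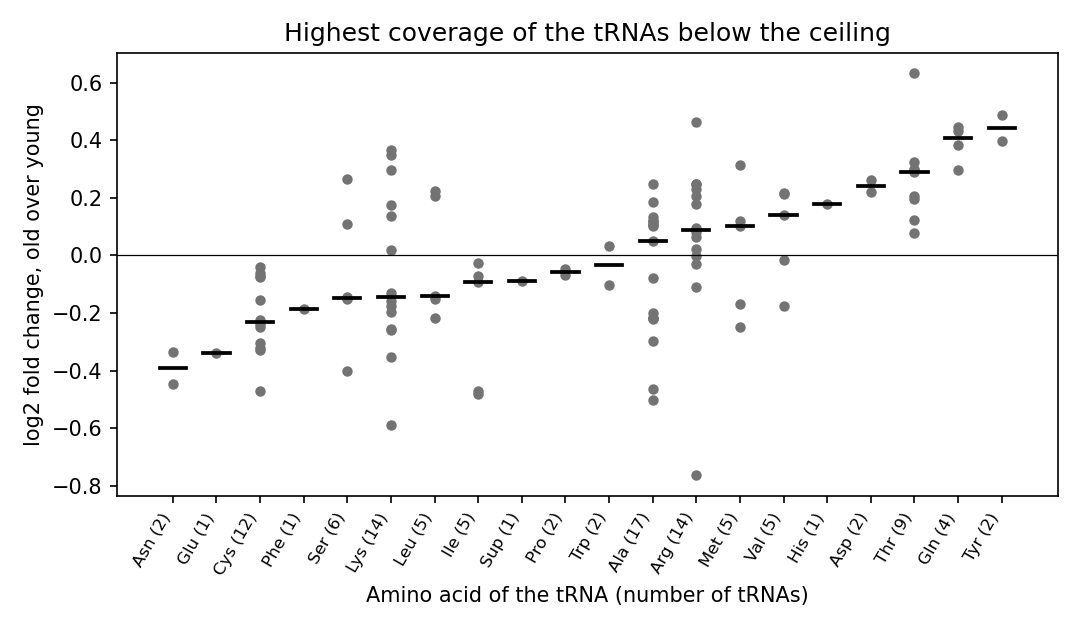
Log2 fold change of highest coverage, old over young, of the 110 tRNAs below the ceiling, by amino acid (number of tRNAs in brackets); each point is a tRNA and each bar the median of its amino acid. Cysteine tRNAs lie below 0 and threonine, glutamine and tyrosine tRNAs above it, none was called, and the changes run from -0.76 to 0.63.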

How the data were processed

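Per the file headers, the authors deposited, for each base of each tRNA entry, the coverage and the stop reads, both whole counts with a minimum of 1, and the stop rate as a percent, and that percent was recomputed without difference from the 2 counts. The submitters' processing notes name Bowtie2 2.3.5 and Bowtie, without roles. The rule for counting stops and the treatment of reads that match several tRNAs are not given in the sources used here. Positions are within the tRNA, and no genome coordinates were used. Rows are missing from the tables used for 90 of the 213 distinct tRNAs. The usual numbering placed 188 tRNAs at the anticodon and 188 at the T loop.

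Rows needed coverage of 20 in all 6 libraries and a stop rate of 5% as the mean over the 6, both ages together. The first row of an entry, which counts reads reaching the 5′ end, was left out of the test. Stop and read-through counts were compared by edgeR 4.0.16 in R 4.3.3 (quasi-likelihood, a coefficient per library and for stops, no dispersion trend), with Benjamini-Hochberg adjustment over all rows below the ceiling. Abundance used edgeR with TMM and filterByExpr on the highest coverage per tRNA. The methods were tested on simulated data in which rows were drawn independently. That test does not cover near-alike tRNAs that share reads. Alternatives used limma 3.58.1 and DESeq2 1.42.0. Reads carry no molecular identifiers, so errors are spreads between libraries. Named were the 10 called rows of largest difference each way (1 for each pair of anticodon and position) with the best covered row of every position group, and related tRNAs of the same anticodon were set beside them. The members and lists were chosen with earlier results of these data known. The libraries with CMC were read at the called rows after those calls were seen.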

Additional observations from a re-analysis of the deposited data

How the results depend on the processing

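Of the 28 called rows, all were called again with coverage minimums of 50, 10 and 1, with 1 subtracted from both counts, with the first row tested too, without the 14 rows at the 3′ end, with a stop rate minimum of 2% and with all 404 entries. With limma on log odds, and with ceiling rows in the same fit, the calls, the calls lower in old and the anticodon calls were all 0. With a stop rate minimum of 10% they were 15, 15 and 7, since fewer rows were tested, and with all entries 47 rows were called, as copies counted again. Leaving out 1 library gave 7 to 31 calls, 7 to 30 calls lower in old and 7 to 19 anticodon calls, each lowest without the first young library; the cause was not tested. Called rows at the ceiling ranged from 0 to 1, the 1 being base 47 of tRNA-Phe-GAA-1-1 without the first old library. The difference in mean stop rate, -0.0751 points, became 0.247 with a coverage minimum of 10 and ran from -0.372 to 0.483 with 1 library left out. Abundance gave 0 calls under each alternative run, DESeq2 and limma voom included.

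Deviations of same-numbered libraries had correlations of -0.0715, 0.161 and -0.178, and those of libraries with different numbers ran from -0.270 to 0.360. With 3 libraries per age these values cannot settle whether the numbers pair the samples. The main test used no replicate block. With the replicate block 35 rows were called, all 28 among them.

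Some named rows that were not called changed sign with 1 library left out. The difference ran from -0.435 to 0.540 points at T28 of tRNA-Leu-AAG-3-1 (base 29) and from -6.23 to 1.16 at T39 of tRNA-His-GTG-1-1. It ran from -0.608 to 1.04 at C61 of tRNA-Trp-CCA-6-1 (base 60) and from -1.47 to 0.109 at A37 of tRNA-SeC-TCA-1-1.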
